A study of Rattus norvegicus with 20 samples.

Results

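The effect of phototherapy in rat pups without jaundice was examined in 5 light-treated and 5 untreated heterozygous Gunn rat pups. These were 10 of the 20 hippocampal RNA libraries of the series, taken by their labels for genotype and treatment, and no measured value was used to choose them. All were Gunn rats with 1 working and 1 mutant copy of the gene for the liver enzyme that conjugates bilirubin, called non-jaundiced (Nj), and all were killed on postnatal day 6. Treated pups had LED light from day 4 onwards for 12 h in total, 3 h on and 3 h off in the daytime, and untreated pups had none. Whether untreated pups were handled or taken from the dam like treated ones, and which litters the pups came from, is not given in the sources used here. The other 10 libraries, of homozygous jaundiced (jj) pups of the same strain and age with and without the same light, are used for comparison where named.

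Phototherapy is the standard treatment of newborn jaundice: light at the skin turns bilirubin into forms that can leave the body without conjugation. Nj pups clear bilirubin, so the comparison asks what the treatment goes with in the brain of a pup that does not need it. The hippocampus, a cortical structure for memory, is still being built at this age in the rat. Progenitors of the dentate gyrus divide, newborn neurons extend axons, synapses form, and astrocytes mature.

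Libraries of polyA RNA held 19098054 to 27112749 counts in untreated and 19481780 to 23070996 in treated pups. Levels are given in CPM, counts scaled to a common library size. Hippocampal genes were present in all 10 libraries, such as Prox1 of dentate granule cells (89.1 to 133 CPM of total counts) and Neurod6 of pyramidal neurons (242 to 358 CPM). Among genes checked for other brain regions, Gabra6 and En2 of the cerebellum and Hcrt were near 0, with 0 to 5 counts of Gabra6. Drd1 and Lhx9 were present in all 10 libraries, at 2.67 to 4.88 and 6.11 to 9.18 CPM of total counts. Their source was not tested. Ttr, the transthyretin gene of the choroid plexus, an adjoining tissue, ran from 3.57 to 4111 CPM in untreated and from 18.9 to 3950 CPM in treated pups, and 3 libraries (untreated 3, treated 2 and treated 5) lay above 1000 CPM. Over 24 choroid plexus genes the mean log2(CPM + 1) spanned 1.96 to 5.31 in untreated and 2.00 to 5.15 in treated pups (difference 0.20, exact permutation p = 0.889, two-sided). The difference was -0.10 over 28 genes of meninges (p = 0.579), -0.18 over 31 genes of ependyma (p = 0.159) and -0.26 over 9 red blood cell genes (p = 0.0397, 0.159 adjusted over the 4 lists), by the same exact test. Of these 92 genes 0 passed the test for single genes used below, and their part in the results was not tested. Sample titles carry the prefix J18 for every treated pup and J13, J14 or J15 for untreated Nj pups. What it stands for is not stated, so prefix and treatment cannot be told apart. The labels give no sex: Kdm5d, a gene of the Y chromosome, was above 10 CPM in 2 untreated pups and 1 treated pup. These are tissue samples: fewer cells of a type and less RNA per cell cannot be told apart.

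Light-treated Nj pups had small, widely spread differences from untreated ones. The genes with the lowest p were Prag1, a pseudokinase, and Zbtb12, a zinc finger protein, both lower, and Ttll7, an enzyme that adds glutamates to tubulin, higher. Prag1 (ENSRNOG00000011407) stood at 50.2, 54.1, 49.2, 58.2 and 58.4 CPM in untreated pups 1 to 5 and at 40.6, 40.9, 40.1, 38.7 and 37.4 CPM in treated pups 1 to 5. All 5 treated pups lay below all 5 untreated ones, closely grouped, and Prag1 fell by 0.45 on the log2 scale (SE 0.06, edgeR quasi-likelihood test with Benjamini-Hochberg adjusted p = 0.000774). Zbtb12 (ENSRNOG00000000418) was measured at 22.7, 20.2, 24.8, 28.0 and 26.0 CPM without light and 15.6, 15.1, 17.3, 16.9 and 14.9 CPM with it. Its groups did not overlap either, with a wider spread among untreated pups, and it fell by 0.61 (SE 0.08, adjusted p = 0.000774). Ttll7 (ENSRNOG00000031997) had 46.2, 48.4, 45.3, 43.4 and 44.6 CPM in untreated and 62.7, 58.5, 56.0, 61.2 and 55.1 CPM in treated pups, every treated pup being the higher (log2 0.36, SE 0.05, adjusted p = 0.000774). Among genes past the threshold with groups that did not overlap and at least 2 CPM over the 10 pups, Gpc2, a glypican of growing axons, had the largest fall. Its values were 33.6, 31.2, 43.8, 50.8 and 42.9 CPM in untreated and 25.3, 23.7, 25.7, 25.4 and 20.3 CPM in treated pups. Untreated pups 1 and 2 were the lowest of their group, and all treated pups lay lower still (log2 -0.74, SE 0.11, adjusted p = 0.00126). By the same rule the largest rises were those of Rgs6, a regulator of G protein signalling (18.4 ± 2.12 to 27.8 ± 5.54 CPM; log2 0.60, SE 0.15, adjusted p = 0.0337), and Ano3. Rgs6 passed in 4 of the 10 fits that left out 1 Nj library. Ano3, a member of the anoctamin family of membrane proteins, passed in all 10. It had 18.5, 21.6, 15.7, 14.9 and 14.4 CPM in untreated and 24.8, 24.96, 27.0, 23.1 and 28.6 CPM in treated pups, with no overlap (log2 0.59, SE 0.12, adjusted p = 0.00925).

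Of 15272 genes tested, 611 passed an adjusted p of 0.05 (4.00%), 228 higher (1.49%) and 383 lower (2.51%). The CPM ranges of the 2 groups did not overlap for 155 of the 228 and 276 of the 383, beside 987 of all genes tested (6.46%). The median size of the change was 0.27 on the log2 scale for risers and 0.24 for fallers, and 19 risers and 9 fallers passed 1.5-fold. How many genes passed depended on single libraries: 152 without untreated 4, 159 without untreated 5, 272 without treated 2 and 253 without treated 5. A fit that left out the 7 libraries above 1000 CPM of Ttr in the series, 3 of Nj and 4 of jj pups, called 112, 84 of them among the 611. These 7 are the Ttr-rich libraries named below. Over the 611 genes, the log2 change without them was a median of 0.932 times that with all libraries. Leaving them out also leaves fewer pups per group. With all libraries and the choroid plexus level as a covariate, 819 genes passed, all 611 among them. The cause of these differences in count was not tested. The sign held for all 611 wherever they were tested, in the 10 fits leaving out 1 Nj library and under 11 other settings, which share most of their libraries. As the 611 were chosen by passing with all libraries, a change of sign was unlikely from the start. In every one of these fits 54 genes passed, among them Zbtb12 and Ttll7.

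**Figure D1:**
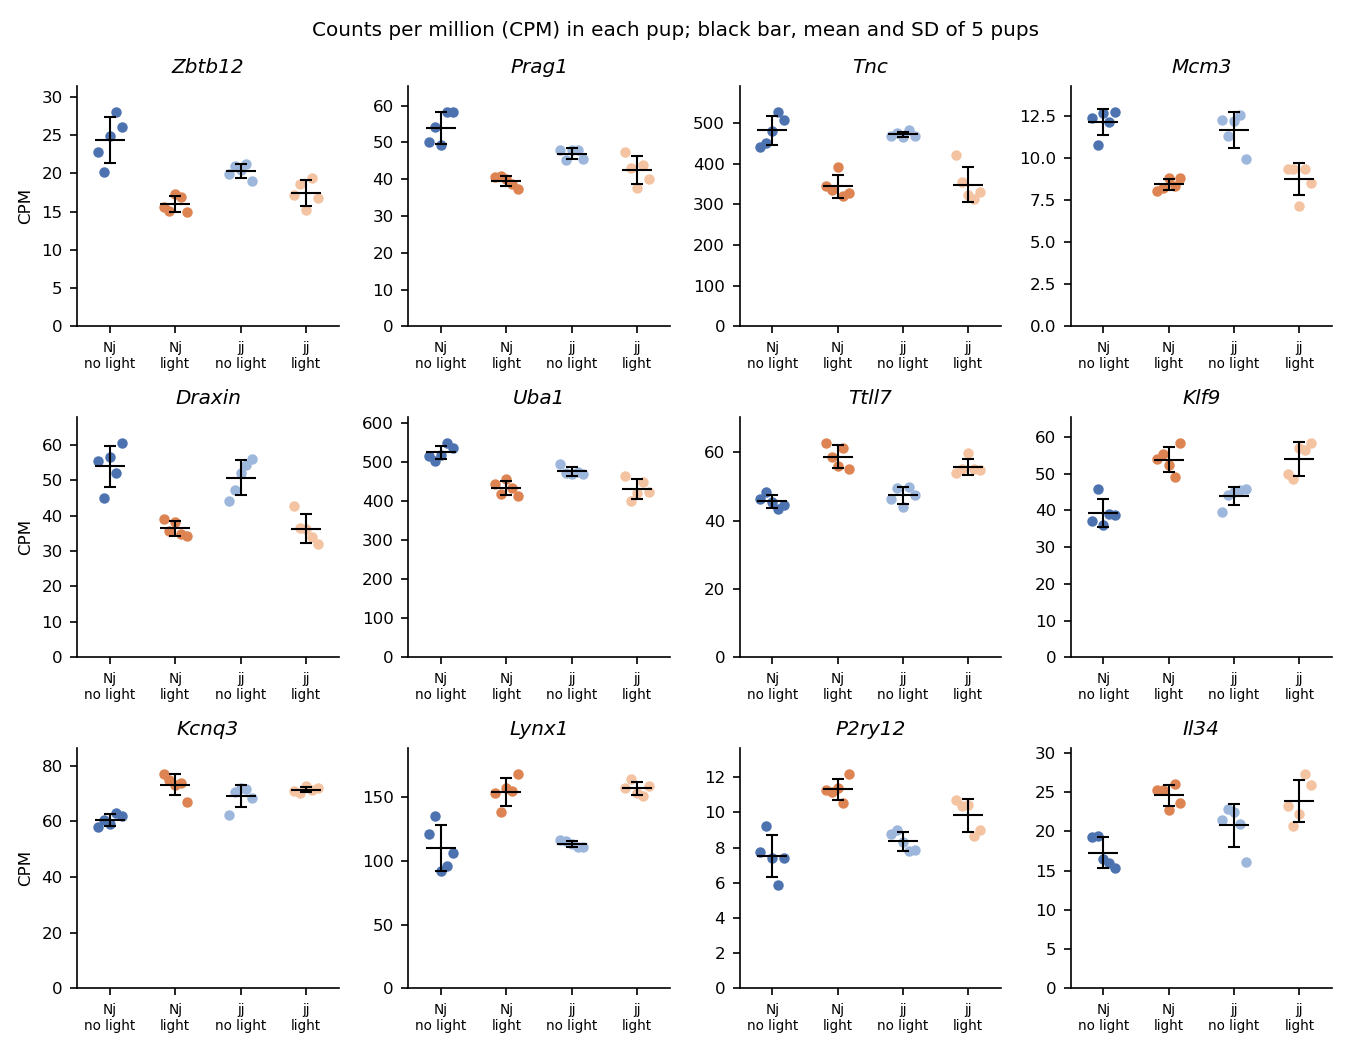
CPM (vertical axes, from 0) of 12 genes in each pup, for untreated and light-treated Nj and jj pups; dots are pups, and bars the mean and SD of 5 pups. In all 12 genes the Nj groups do not overlap, for example Mcm3 at 10.8 to 12.8 CPM without and 8.06 to 8.80 CPM with light. The rule for naming genes by size, p or level requires this. Of all genes past the threshold, 155 of 228 risers and 276 of 383 fallers meet it.

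Of 41 genes that copy DNA before cell division, 10 fell and 0 rose in treated pups, with a list median of -0.11 beside 0.00 over all genes. Calls in this list and in all lists and families below stand beside 1.49% higher and 2.51% lower over all genes tested. Of the 10 fallers 5 were subunits of the Mcm helicase, the ring that unwinds DNA at the fork. The stretches around the start sites of 4 of these 5 are printed from RefSeq (GRCr8), 250 bases before to 30 after the start, because these genes moved together. Capitals mark matches on either strand to TTTCCCGC, TTTGGCGC or TTTCGCGC, spellings of the motif of E2F factors, which act on genes of the DNA synthesis phase.
Mcm3 at chr9:30733717-30733996 on the minus strand: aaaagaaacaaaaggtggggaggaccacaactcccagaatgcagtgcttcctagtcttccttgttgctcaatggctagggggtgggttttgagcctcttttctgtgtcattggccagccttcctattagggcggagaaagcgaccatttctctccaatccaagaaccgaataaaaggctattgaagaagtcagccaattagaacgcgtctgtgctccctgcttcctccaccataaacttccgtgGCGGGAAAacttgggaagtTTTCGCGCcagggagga
Mcm2 at chr4:122918065-122918344 on the minus strand: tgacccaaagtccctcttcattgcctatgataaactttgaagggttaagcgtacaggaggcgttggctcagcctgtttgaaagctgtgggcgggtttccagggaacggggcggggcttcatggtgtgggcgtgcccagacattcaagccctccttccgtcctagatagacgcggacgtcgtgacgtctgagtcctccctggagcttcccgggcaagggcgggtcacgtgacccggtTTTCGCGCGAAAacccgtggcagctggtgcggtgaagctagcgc
Mcm6 at chr13:42404323-42404602 on the minus strand: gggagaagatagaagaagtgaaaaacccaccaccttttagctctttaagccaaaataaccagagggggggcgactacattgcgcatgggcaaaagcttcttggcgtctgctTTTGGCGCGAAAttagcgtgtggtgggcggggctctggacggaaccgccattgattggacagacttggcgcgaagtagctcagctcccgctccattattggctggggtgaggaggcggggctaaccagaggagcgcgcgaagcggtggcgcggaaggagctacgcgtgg
Mcm5 at chr19:13488563-13488842 on the plus strand: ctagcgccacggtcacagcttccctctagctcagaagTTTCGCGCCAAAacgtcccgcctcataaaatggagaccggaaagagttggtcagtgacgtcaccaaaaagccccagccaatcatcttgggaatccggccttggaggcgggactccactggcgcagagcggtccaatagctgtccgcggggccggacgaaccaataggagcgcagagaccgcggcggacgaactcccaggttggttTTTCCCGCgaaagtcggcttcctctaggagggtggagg
The matches begin 6 bases before and 13 after the start in Mcm3, 14 and 10 before it in Mcm2, 139 and 135 before it in Mcm6, and 213, 209 and 8 before it in Mcm5. The pairs 4 bases apart in Mcm2, Mcm6 and Mcm5 share letters, 1 match being on each strand. Over the window of 250 bases before to 50 after the start, such a match was found for 7 of the 9 fallen replication genes that had a sequence (77.8%), for 14 of 35 in the whole list (40.0%) and for 359 of 10858 genes tested (3.3%). It was found for 6.2% of all fallers and 2.9% of all risers. A match of letters is a description and no measure of binding.

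Mcm3 (ENSRNOG00000012543) stood at 12.4, 10.8, 12.7, 12.2 and 12.8 CPM in untreated and 8.06, 8.23, 8.80, 8.35 and 8.80 CPM in treated pups. The treated pups sat in a narrow band below every untreated one (log2 -0.52, SE 0.08, adjusted p = 0.00216). Mcm2 had 20.2, 20.4, 21.2, 21.4 and 20.5 CPM without light and 16.6, 13.7, 19.1, 16.3 and 15.97 CPM with it, the groups again apart (log2 -0.34, SE 0.08, adjusted p = 0.0153). Uhrf1 and Dnmt1, which copy methylation marks onto new DNA, fell together. Uhrf1 went from 12.9, 13.1, 12.7, 14.5 and 12.5 to 9.83, 9.38, 9.91, 8.30 and 9.61 CPM (log2 -0.48, SE 0.10, adjusted p = 0.00925). Dnmt1 went from 98.6, 100.2, 102, 113 and 107 to 84.0, 77.8, 91.0, 82.2 and 76.3 CPM (log2 -0.34, SE 0.05, adjusted p = 0.00206). Neither pair of groups overlapped, and in both genes untreated pup 4 was the highest. Pola2, a subunit of the polymerase that starts each new strand, went from 8.64 ± 0.252 to 6.37 ± 0.381 CPM (SD, n = 5; log2 -0.44, adjusted p = 0.00822). The other fallers were Mcm6 (log2 -0.25), Mcm7 (-0.29), Mcm5 (-0.37), the licensing factor Cdt1 (-0.45) and Rrm2, which makes deoxynucleotides (-0.50). Of 34 genes of mitosis, the later step of division, 2 fell, the spindle factor Tpx2 (log2 -0.28) and the proliferation marker Mki67 (-0.28), with a median of -0.16 and 29 negative. The 10 replication fallers became 4 without untreated 4, 5 without untreated 5, treated 2 or treated 5, 6 without untreated 2 or treated 1, and 2 without the Ttr-rich libraries. The 2 mitosis genes both passed only with all libraries or without treated 3, among fits leaving out 1 Nj library, and neither did without the Ttr-rich ones.

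Of 32 genes of newborn and growing neurons 8 fell and 0 rose (median -0.19, 26 of 32 negative). Draxin, a secreted guidance protein (ENSRNOG00000008911), had 55.5, 45.0, 56.4, 52.1 and 60.6 CPM in untreated and 39.2, 35.7, 38.2, 34.7 and 34.1 CPM in treated pups. All treated pups were below the lowest untreated one, pup 2 (log2 -0.57, SE 0.08, adjusted p = 0.00126). Sox11, a transcription factor of newborn neurons, had 41.6, 49.3, 55.7, 64.4 and 58.6 CPM without and 40.0, 39.0, 39.5, 36.9 and 37.3 CPM with light: treated pups formed a narrow band below the wide spread of the untreated ones (log2 -0.48, SE 0.09, adjusted p = 0.00821). Islr2, a membrane protein of growing axons, read 311, 325, 309, 385 and 379 CPM in untreated and 269.5, 246, 290.5, 217 and 233 CPM in treated pups (log2 -0.44, SE 0.08, adjusted p = 0.00734). Treated pup 4 was the lowest of the 10, and the groups did not overlap. Crmp1, which carries semaphorin signals to microtubules, went from 1909 ± 67.5 to 1619 ± 117 CPM (log2 -0.24, adjusted p = 0.00925). The list held 8 to 10 fallers whichever Nj library was left out, and 4 without the Ttr-rich ones.

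Among tubulins 4 fell and 1 rose. This family of 12 alpha- and beta-tubulins was put together after its values were seen. Tubb5 went from 2674, 2746, 2729, 3000 and 2974 CPM to 2393, 2223, 2388, 2381 and 2054 CPM, with the groups apart (log2 -0.30, SE 0.05, adjusted p = 0.00384). The neuronal Tubb3 (log2 -0.32), Tubb2b (-0.31) and Tuba1a (-0.27) fell with it. Tuba4a, an alpha-tubulin of mature neurons, moved the other way, from 217, 236, 195, 188 and 206 CPM to 252.03, 242, 264, 264 and 254 CPM. Every treated pup was above every untreated one (log2 0.29, SE 0.06, adjusted p = 0.00821). The microtubule-associated proteins Map1b (5755 ± 329 to 4808 ± 274 CPM, log2 -0.26, adjusted p = 0.0172) and Mapt, which encodes tau (2974 ± 122 to 2536 ± 189 CPM, log2 -0.23, adjusted p = 0.0138), also fell. Map1b did not pass without untreated 4 (adjusted p = 0.0581), untreated 5 (0.067) or treated 5 (0.0526), and Mapt did not without untreated 5 (0.0535).

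Among 29 genes of neural progenitors and radial glia, 4 fell and 0 rose (median -0.17). They were Nes, the intermediate filament nestin, Tnc, the matrix protein tenascin C, the receptor Notch1 and its ligand Dll1. Tnc (ENSRNOG00000058645) stood at 441, 452, 482, 528 and 507 CPM in untreated and 346, 336, 392, 319.7 and 328 CPM in treated pups. Treated pup 3 was the highest of its group and still below all untreated pups (log2 -0.48, SE 0.07, adjusted p = 0.00126). Nes had 8.84, 7.64, 11.4, 10.2 and 10.1 CPM without and 7.80, 6.34, 6.46, 6.65 and 5.64 CPM with light, where treated pup 1 reached into the untreated range (log2 -0.55, SE 0.10, adjusted p = 0.00596). Notch1 (log2 -0.24) passed in 4 of 10 fits that left out 1 Nj library and Dll1 (log2 -0.32) in 7. Of 31 genes of Notch and hedgehog signalling the same pair and Jag1, another Notch ligand (log2 -0.29), fell. These were 0 without untreated 4, untreated 5 or treated 2, and 1 without treated 1 or 5. The progenitor list had 2 fallers without untreated 4, untreated 5 or treated 2, and 3 without the Ttr-rich libraries. Ependyma, which lies against the ventricle and shares genes with radial glia, had 29 of 31 genes negative (median -0.15, 0 past the threshold). Without the Ttr-rich libraries 4 of these fell (median -0.34), and without treated 5 1 did (median -0.32). Its part in the result was not tested.

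Genes of interneurons moved in both directions. Of 28 tested, 5 fell and 2 rose. The homeobox factors of immature interneurons Dlx2 (log2 -0.43), Dlx5 (-0.39) and Dlx1 (-0.21) were among the lower genes, as was Reln, the secreted protein reelin, which Cajal-Retzius cells also make. Reln ran at 556, 614, 668, 721 and 732 CPM without and 499, 531, 522, 484 and 469 CPM with light. Its highest treated value stayed under its lowest untreated value (log2 -0.39, SE 0.07, adjusted p = 0.00278). The risers were the peptide somatostatin, Sst (110.3 ± 9.78 to 135 ± 13.3 CPM; log2 0.29, adjusted p = 0.0192), and the calcium buffer parvalbumin, Pvalb (log2 0.96, adjusted p = 0.0364), which lay under 2 CPM in all 10 pups. Sst did not pass without untreated 4 or 5 (adjusted p = 0.06 and 0.0532), and Pvalb passed in 4 of 10 such fits. The list had 2 fallers without untreated 4, untreated 5, treated 2 or treated 5, 3 without untreated 2 or treated 1, 3 or 4, and 0 without the Ttr-rich libraries. Its 2 risers became 0 without untreated 4 or 5, and 1 without untreated 2 or 3, treated 2 or 5, or the Ttr-rich libraries.

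Axon guidance genes, which steer growing fibres, held 9 fallers and 0 risers among 69 (median -0.08). Besides Draxin they were the netrin receptor Unc5b (log2 -0.27), the repellent Slit2 (-0.23) and its receptor Robo1 (-0.18), the semaphorin Sema4c (-0.36) and the semaphorin receptor Nrp2 (-0.30), the ephrin Efnb1 (-0.30), and the adhesion molecules Cntn2 (-0.32) and L1cam (-0.19). Slit2 had 118, 111, 119, 109 and 115 CPM in untreated and 90.0, 99.3, 105, 92.0 and 103 CPM in treated pups, closely spaced but apart (SE 0.05, adjusted p = 0.0135). Sema4c had 48.9, 49.97, 53.4, 56.5 and 55.4 CPM and 41.5, 36.0, 45.0, 45.0 and 37.6 CPM, also apart (SE 0.07, adjusted p = 0.00925). Both passed whichever Nj library was left out. The list had 4 fallers without untreated 4 or 5, 5 without treated 2 or 5, and 1 without the Ttr-rich libraries.

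The matrix around brain cells moved mostly down, with 6 of 57 genes lower and 2 higher (median -0.13, 46 negative). Gpc2 and Tnc are members of this list too. Adamts7, a secreted protease, read 21.0, 17.4, 21.4, 22.2 and 22.7 CPM in untreated and 15.6, 14.9, 17.7, 17.1 and 13.6 CPM in treated pups, where treated pup 3 lay just above untreated pup 2 and the other pups were apart (log2 -0.41, SE 0.08, adjusted p = 0.00974). Agrn, the proteoglycan agrin (log2 -0.26), Vcan, the proteoglycan versican (-0.31), and Emilin3 (-0.68) were the other fallers. The risers were Hapln4, a link protein of perineuronal nets (log2 0.62), and the astrocyte protein Sparcl1 (0.19). Counts of fallers ran from 3 without untreated 5 and 4 without untreated 4 or treated 2 to 9 without untreated 3, and were 2 without the Ttr-rich libraries. The 2 risers became 0 without untreated 4, untreated 5, treated 5 or the Ttr-rich libraries, and 1 without untreated 1 or 3 or treated 2 or 4.

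**Figure D2:**
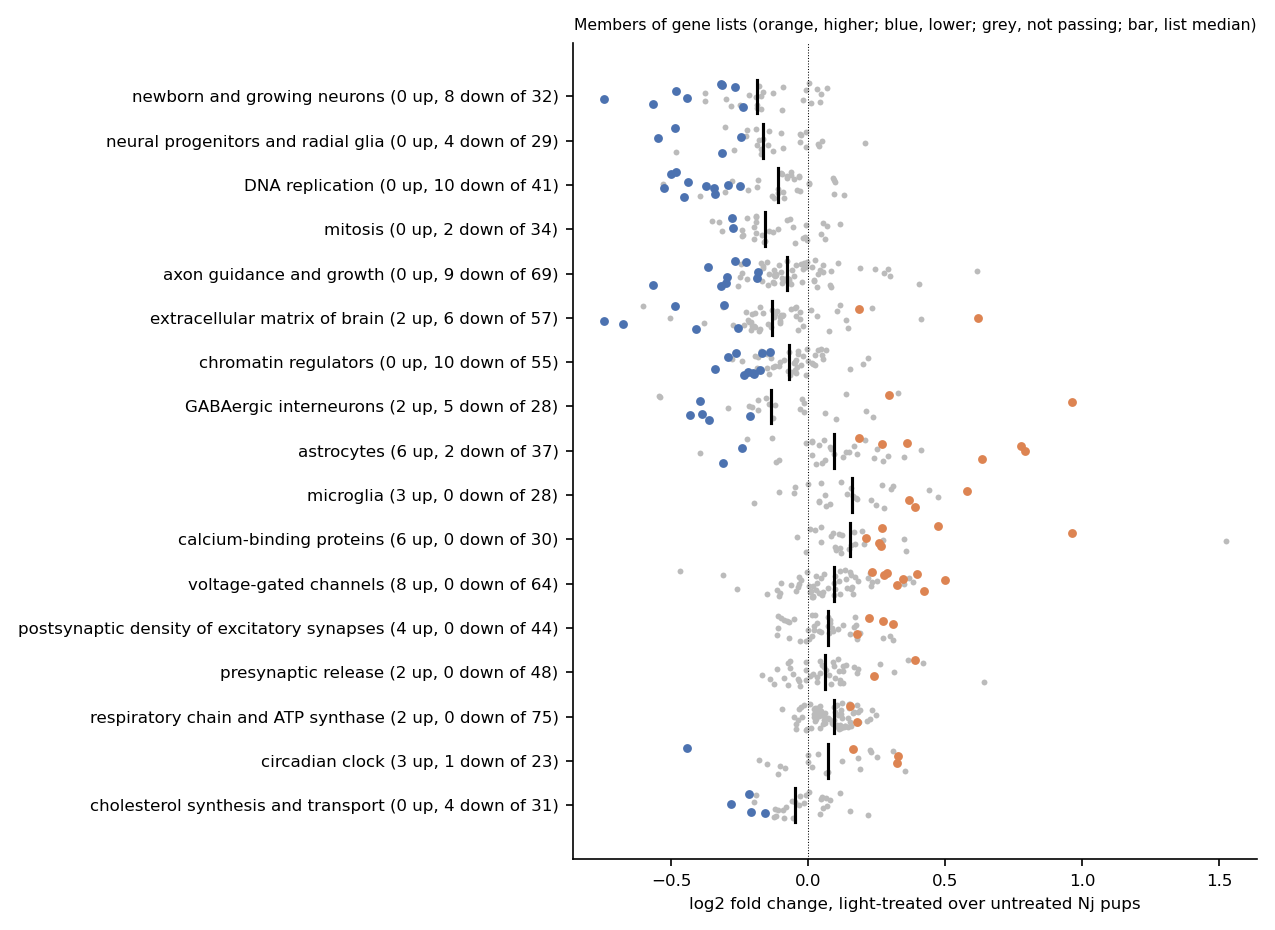
Log2 fold change of treated over untreated Nj pups (horizontal axis) for every tested member of 17 gene lists; each dot is a gene, coloured when it passed, and the bar is the list median. Dots that passed lie left of 0 for newborn neurons, DNA replication, axon guidance and chromatin, and right of 0 for channels, calcium-binding proteins and microglia.

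Chromatin regulators formed another group of small falls, 10 of 55 lower and 0 higher (median -0.07). It included the remodelling ATPase Smarca4 and its partners Arid1a (log2 -0.23), Arid1b (-0.20), Smarcc1 (-0.17) and Smarcc2 (-0.14). Smarca4 (ENSRNOG00000009271) had 300.4, 308, 302, 341 and 324 CPM in untreated and 272, 257, 275, 264 and 242 CPM in treated pups. Every treated pup was lower, by amounts that are small beside the level (log2 -0.26, SE 0.04, adjusted p = 0.00327). Also lower were the chromodomain helicases Chd4 (log2 -0.22) and Chd8 (-0.17), the demethylase Kdm6b (-0.29) and Dnmt1. The count was 5 without untreated 4, untreated 5 or treated 2, 6 without treated 5, and 3 without the Ttr-rich libraries.

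Families put together after their values were seen included nucleoporins, the proteins of the nuclear pore. Of 23, 6 fell and 0 rose (median -0.12, 19 negative). Nup62, of the central channel, had 53.5, 54.6, 55.5, 61.7 and 59.1 CPM in untreated and 52.0, 46.4, 48.7, 46.4 and 46.2 CPM in treated pups, with only treated pup 1 near the untreated values (log2 -0.25, SE 0.05, adjusted p = 0.0121). Of 9 subunits of splicing factor 3, which recognises the branch point, 3 fell and 0 rose. Sf3b3 went from 126, 123, 128, 132 and 137 CPM to 105, 109, 109.7, 109 and 100.1 CPM, with the groups apart (log2 -0.28, SE 0.04, adjusted p = 0.00126). Uba1, the enzyme that activates ubiquitin, belongs to none of the lists. It read 515, 503, 517, 548 and 534 CPM without and 443, 418, 455, 433 and 413 CPM with light, every treated pup lower (log2 -0.28, SE 0.04, adjusted p = 0.00126).

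Some ion channels of neurons were higher. Of 64 genes of voltage-gated and related channels 8 were higher and 0 lower (median 0.09, 49 positive). Kcnq3, a subunit of the potassium channel that carries the M-current (ENSRNOG00000005206), had 57.8, 60.4, 58.9, 63.2 and 61.9 CPM in untreated and 77.1, 74.8, 73.1, 73.8 and 67.1 CPM in treated pups. Treated pup 5 was the lowest of its group and still above all untreated pups (log2 0.28, SE 0.04, adjusted p = 0.00216). The other potassium channel genes were Kcnj4 (log2 0.50), Kcnj9 (0.35), Kcnc4 (0.32) and Kcnv1 (0.40). Auxiliary subunits rose too, among them Cacnb4 of calcium channels (0.42) and Scn2b of sodium channels (0.23). Nalcn, the sodium leak channel, and its partner Unc80 were picked after their values were seen. Nalcn went from 108, 112, 108, 108 and 105 to 127, 133, 118, 138 and 127 CPM and Unc80 from 65.4 ± 3.59 to 77.9 ± 3.99 CPM, with groups apart in both (log2 0.25 and 0.25, adjusted p = 0.00677 and 0.00925). The list count was 2 without untreated 4 or 5, 4 without untreated 1 or 3 or treated 1 or 2, 5 without treated 5, 12 without untreated 2, and 4 without the Ttr-rich libraries.

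Of 30 calcium-binding proteins 6 rose and 0 fell (median 0.15, 28 positive). Caln1, calneuron 1 (ENSRNOG00000000886), read 33.8, 36.6, 37.3, 38.1 and 37.9 CPM in untreated and 49.3, 43.9, 43.3, 45.7 and 38.9 CPM in treated pups. The lowest treated value, pup 5, was just above the highest untreated one (log2 0.27, SE 0.06, adjusted p = 0.0117). Hpcal4, a neuronal calcium sensor, had 276, 296, 261, 257 and 258 CPM and 324, 330.2, 297, 354 and 307 CPM, apart by less than 1 CPM at untreated pup 2 and treated pup 3 (log2 0.26, SE 0.05, adjusted p = 0.00916). Vsnl1 (log2 0.48), Ncald (0.21), S100b (0.27) and Pvalb were the others. The list had 2 risers without untreated 4 or 5, 3 without untreated 3 or treated 2 or 5, and 1 without the Ttr-rich libraries.

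At synapses fewer genes passed than among channels or calcium-binding proteins, beside 1.49% higher and 2.51% lower over all genes tested. Of 44 postsynaptic genes 4 rose, neurogranin Nrgn (log2 0.27), Psd3 (0.22), the adhesion molecule Lrrtm4 (0.31) and dendrin Ddn (0.18). Of 48 presynaptic genes 2 rose, the vesicle protein Vamp1 (log2 0.39) and Rimbp2 of the active zone (0.24). Of both lists 0 genes fell. Of 20 genes of GABA and glycine receptors 0 passed and 18 were positive (median 0.13), whereas 3 rose by DESeq2 and with Nj libraries alone, 1 with the choroid plexus level as a covariate and 1 without treated 3. Rimbp2 had 77.4, 85.5, 75.6, 81.0 and 73.0 CPM in untreated and 101, 92.6, 94.4, 92.4 and 84.0 CPM in treated pups, the treated pup 5 falling within the untreated range (SE 0.06, adjusted p = 0.0185). Without untreated 5 it did not pass (0.0564). The postsynaptic count was 0 without untreated 4, 1 without untreated 5 or treated 2, 2 without untreated 1 or treated 1 or 5, 6 without untreated 2, and 2 without the Ttr-rich libraries. The presynaptic count was 1 without untreated 4 or 5, 6 without untreated 2, and 1 without the Ttr-rich libraries. Lynx1, a membrane-anchored protein that tempers nicotinic receptors, belongs to no list. It read 121, 135, 92.3, 96.1 and 106 CPM without and 153, 138, 157, 155 and 169 CPM with light: untreated pups varied most, and the highest of them lay just below the lowest treated pup (log2 0.49, SE 0.07, adjusted p = 0.00198).

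Astrocyte genes rose more often than they fell, 6 higher and 2 lower of 37 (median 0.09). Slc1a2, the main glutamate transporter of astrocytes, had 106, 125, 102, 105 and 105 CPM in untreated and 145, 153, 138, 120.3 and 141 CPM in treated pups. Untreated pup 2 was above treated pup 4, and the other pups were apart (log2 0.36, SE 0.06, adjusted p = 0.00596). Ntsr2, a neurotensin receptor of astrocytes, had 4.89, 9.36, 4.71, 7.14 and 6.49 CPM and 13.0, 11.4, 11.3, 8.496 and 11.6 CPM, with the same untreated pup inside the treated range (log2 0.78, SE 0.16, adjusted p = 0.00925). Grin2c, an NMDA receptor subunit, read 11.9, 19.9, 9.85, 11.5 and 11.6 CPM in untreated and 22.6, 24.03, 24.5, 18.5 and 22.6 CPM in treated pups (log2 0.79, SE 0.16, adjusted p = 0.0119). It shows the same pattern, untreated pup 2 alone lying among the treated values. The tight-junction gene Cldn10 (log2 0.63), S100b and Sparcl1 were the other risers. The fallers were Mfge8, a secreted bridging protein for engulfment (log2 -0.24), and Aldh1l1, a folate enzyme (-0.31). With the Ttr-rich libraries left out 0 of the 37 passed in either direction. Risers numbered 3 without untreated 4 or 5 or treated 2, 4 without untreated 3 or treated 5, and 9 without untreated 2, and fallers 0 without untreated 4 or 5 or treated 2 or 5 and 1 without untreated 2 or treated 1 or 4.

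Microglia genes had 3 risers and 0 fallers of 28 (median 0.16, 24 positive). P2ry12, the receptor by which resting microglia sense nucleotides, had 7.76, 9.24, 7.40, 5.88 and 7.39 CPM in untreated and 11.3, 11.1, 11.4, 10.5 and 12.2 CPM in treated pups. Treated pups were close together and all above the untreated ones (log2 0.58, SE 0.10, adjusted p = 0.00267). The lysosomal protease Ctss (log2 0.37) passed in 4 and Aif1 (0.39) in 3 of 10 fits that left out 1 Nj library. Il34, a neuronal ligand of the receptor that microglia need to survive (ENSRNOG00000017602), rose from 19.3, 19.4, 16.5, 15.9 and 15.3 CPM to 25.2, 25.3, 22.8, 26.0 and 23.6 CPM. No treated pup was as low as any untreated one (log2 0.50, SE 0.09, adjusted p = 0.00706). The receptor itself, Csf1r, was at 41.9 ± 1.38 CPM without and 43.1 ± 3.33 CPM with light (log2 0.04, adjusted p = 0.804) and did not pass. The list had 1 riser without untreated 3, 4 or 5 or treated 1, 2 or 5, 2 without treated 4, 5 without untreated 2, and 1 without the Ttr-rich libraries.

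Among genes that respond to hormones and the daily cycle, Klf9 stood out by its p. Klf9 is a transcription factor induced by thyroid hormone and glucocorticoids (ENSRNOG00000014215). It had 37.0, 45.7, 36.1, 39.0 and 38.8 CPM in untreated and 54.0, 55.5, 52.3, 49.0 and 58.4 CPM in treated pups, untreated pup 2 being the nearest to the treated group (log2 0.45, SE 0.07, adjusted p = 0.00126). Of 21 thyroid hormone response genes 3 rose, Klf9, Nrgn and Pvalb, and 1 fell, Reln; the risers were 1 without untreated 4 or the Ttr-rich libraries. Of 20 glucocorticoid response genes 2 rose, Klf9 and Arrdc3 (log2 0.48), and Ddit4 fell (-0.22). Of these 2 risers 1 passed without untreated 1, 2, 4 or 5, treated 2 or 4, or the Ttr-rich libraries. Ddit4 did not pass without untreated 2, 4 or 5, treated 1, 2 or 5, or the Ttr-rich libraries. The well-known glucocorticoid target Fkbp5 did not pass (log2 -0.08, adjusted p = 0.586). Of 23 clock genes the output factors Tef (log2 0.16) and Dbp (0.32) and the repressor Nr1d2 (0.33) rose and Timeless, which also guards replication forks, fell (-0.44). The clock risers numbered 0 without untreated 4 or 5 or treated 2 or 5, 1 without untreated 3, 2 without treated 1, and 0 without the Ttr-rich libraries. The core loop gene Per1 had log2 0.00 (adjusted p = 0.996).

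Single genes of metabolism moved both ways, beside 1.49% higher and 2.51% lower over all genes tested. Slc7a5, the transporter of large neutral amino acids, stood at 188, 196, 174, 193 and 199.9 CPM in untreated and 162, 158, 173, 159.6 and 157 CPM in treated pups, treated pup 3 nearly reaching the lowest untreated value (log2 -0.23, SE 0.05, adjusted p = 0.00925). Phgdh, the first enzyme of serine synthesis, had 128, 144, 124, 146 and 149 CPM and 110.2, 100.3, 122, 111 and 108 CPM and did not overlap (log2 -0.32, SE 0.06, adjusted p = 0.00859). Both belong to the list of the integrated stress response (35 tested, 2 lower), in which Ddit3, encoding CHOP, rose (log2 0.47). Ddit3 did not pass without untreated 5 (adjusted p = 0.0657) or without the Ttr-rich libraries. Of 27 genes of glycolysis and lactate Pfkp (log2 0.42) and Pgam1 (0.18) rose and Pfkl (-0.25) and Hk1 (-0.15) fell, and 0 passed without the Ttr-rich libraries. The fallers were 0 without untreated 4 or 5 or treated 1 or 5, 1 without untreated 2 or treated 2 or 4 and 3 without untreated 3, and the risers 1 without untreated 4 or 5 or treated 5. Fasn, fatty acid synthase, was in no list and went from 1151 ± 88.1 to 913 ± 80.3 CPM (log2 -0.33, adjusted p = 0.00649), apart in all pups. Of 31 cholesterol genes 4 fell, among them the regulator Srebf2 (log2 -0.21) and the enzyme Dhcr7 (-0.21); 0 did without untreated 4 or 5, 2 without treated 2 or 5, and 1 without the Ttr-rich libraries. Of 18 subunits of the vacuolar proton pump, a family put together after its values were seen, 4 rose and 17 were positive (median 0.11). In the 10 fits that left out 1 Nj library Atp6v1c1 and Atp6v1g2 passed in 7, Atp6v1b2 in 4 and Atp6v1d in 1, and none of these 4 passed without the Ttr-rich libraries. Atp6v1c1 had 136, 136, 124, 113 and 122 CPM in untreated and 145, 151, 147, 144 and 151 CPM in treated pups, with no overlap (log2 0.22, SE 0.05, adjusted p = 0.0192). The respiratory chain had 75 nuclear genes tested, of which 64 were positive and 2 passed, Cox7c (log2 0.18) and Sdhd (0.15); 7 passed without untreated 2, 3 without untreated 1, 1 without untreated 3, and 0 without untreated 4 or 5, treated 1, 2 or 5, or the Ttr-rich libraries.

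Lists of signals between cells held calls too, beside 4.00% of all genes tested (1.49% higher and 2.51% lower). Of 47 Wnt genes the planar polarity genes Vangl2 (log2 -0.25) and Celsr1 (-0.32) and the receptor Fzd9 (-0.28) fell, and Prickle2 rose (0.19), while 0 passed in either direction without the Ttr-rich libraries, untreated 4, treated 2 or treated 5. The Wnt fallers were 1 without untreated 2 or 5 or treated 1 or 4. Of 48 growth factor and BMP genes Igf2r, which clears IGF2 (118 ± 6.62 to 101 ± 3.51 CPM; log2 -0.22, adjusted p = 0.0106), and Igfbp4 (log2 -0.24) fell and Pdgfb rose (0.23). Igf2r passed whichever Nj library was left out, Igfbp4 in 2 of these 10 fits and Pdgfb in 3. Without the Ttr-rich libraries 1 faller and 0 risers were left. Of 25 genes of interferon response and antigen presentation B2m, the light chain of class I molecules (213 ± 16.2 to 251 ± 13.9 CPM; log2 0.24, adjusted p = 0.00925), and Ifit2 (log2 0.38) rose. B2m passed in all 10 fits that left out 1 Nj library and Ifit2 in 1, without untreated 1. Neither passed without the Ttr-rich libraries. Of 50 RNA-binding and splicing factors Adarb1, an RNA-editing enzyme (log2 0.18), Srsf5 (0.25) and Mbnl2 (0.25) rose and the neuronal factors Elavl3 (-0.17) and Nova2 (-0.28) fell, with 0 passing without the Ttr-rich libraries, untreated 4 or treated 2.

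Several lists held no gene past the threshold by edgeR with all libraries, beside 4.00% of all genes tested. With 13 to 28 genes tested in each, 0 calls is near that share and does not set these lists apart. They were immediate early genes of neuronal activity (28 tested), heat and cold response (18), p53 targets (24), bilirubin and heme handling (23), inflammation (13), hippocampal subfields (28), myelin (17) and the mitochondrial genome (13). Hmox1, the heme oxygenase induced by oxidative stress, was at 7.504 ± 0.853 CPM without and 6.64 ± 0.631 CPM with light (log2 -0.18, adjusted p = 0.425). Bdnf, a neurotrophin that activity induces, was at 20.7 ± 2.83 CPM without and 23.6 ± 1.92 CPM with light (log2 0.19, adjusted p = 0.27). Dcx, which marks migrating neurons, was at 1451 ± 141 CPM without and 1194 ± 107 CPM with light (log2 -0.28, adjusted p = 0.172). None of these 3 passed. Without untreated 2, 3 myelin genes, 2 immediate early genes and 1 subfield gene rose, without untreated 1 1 p53 target did, and without untreated 3 or treated 3 1 immediate early gene fell. By DESeq2 1 immediate early gene and 1 subfield gene rose, and 2 immediate early genes and 1 gene of heat and cold response fell. With Nj libraries alone 3 mitochondrial genes and 1 myelin gene rose, and 1 immediate early gene and 1 bilirubin and heme gene fell. With untreated pups of prefix J15 only 2 myelin genes, 1 immediate early gene, 1 p53 target and 1 subfield gene rose, and with the meninges level as a covariate 1 immediate early gene rose and 1 subfield gene fell. Where a list has 0 calls, changes smaller than the spread between pups would not have been seen.

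Light-treated and untreated jj pups share no library with the Nj comparison. Both treated groups carry the prefix J18 and untreated jj pups carry J17, so prefix and treatment cannot be told apart in jj pups either. In jj pups 25 genes passed (0.164%), and 18 of them were among the 611, which is 72% of the jj calls and 2.95% of the Nj calls. Of the 228 risers 214 were also positive in jj pups (93.86%), and of the 383 fallers 375 were negative (97.91%), where 69.86% of all genes tested had the same sign in both. The median change of the risers was 0.27 in Nj and 0.16 in jj pups, and that of the fallers -0.24 and -0.13. The genes were called in Nj pups, so the sizes of these medians are not compared. The test of the difference between the genotypes called 0 of 15272 genes by edgeR (0.00%; lowest adjusted p = 0.9997) and 0 by DESeq2, with 521 genes at an unadjusted p under 0.05. No gene can therefore be called particular to Nj pups.

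**Figure D3:**
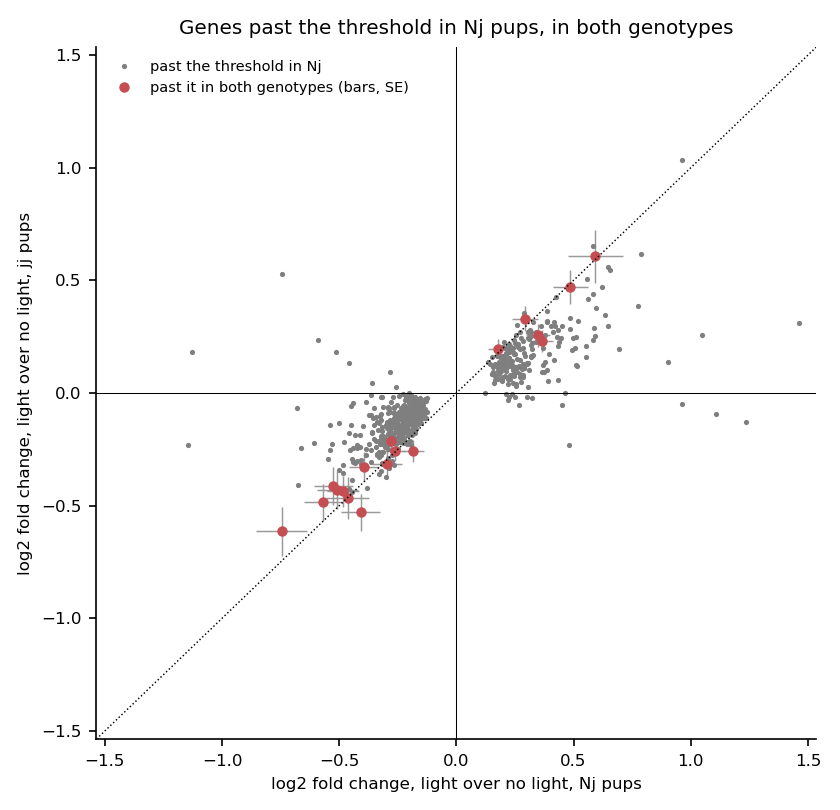
Log2 fold change of light over no light in Nj pups (horizontal) and in jj pups (vertical) for the 611 genes past the threshold in Nj pups; red dots passed in both genotypes, with SE bars, and the dotted line marks equal change. Of the risers 214 of 228 lie above 0 and of the fallers 375 of 383 lie below 0 on the vertical axis.

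Tnc and Lynx1 were among the genes that passed in both genotypes. Tnc fell by 0.44 in jj pups (adjusted p = 0.0141) beside 0.48 in Nj pups. Lynx1 had log2 0.47 in jj pups (adjusted p = 0.0141) beside 0.49. Draxin (-0.48, 0.0199), Gpc2 (-0.61, 0.0242), Mcm3 (-0.41, 0.0459) and Reln (-0.33, 0.0418) also passed in jj pups, each pair being the log2 change and adjusted p there. Kcnq3 had log2 0.05 in jj pups, and the difference of the 2 effects was 0.23 (SE 0.06, unadjusted p = 0.00145). For Caln1 the jj value was -0.05 and the difference 0.32 (SE 0.08, unadjusted p = 0.00052). Prag1 had -0.14 in jj pups, a difference of -0.31 (SE 0.08, unadjusted p = 0.00133). None of these 3 differences passed after adjustment. The 3 genes were called in Nj pups, which favours a larger change there. Their differences and unadjusted p-values therefore do not set the genotypes apart. List medians in Nj and jj pups were -0.19 and -0.18 for newborn neurons, -0.11 and -0.13 for DNA replication, 0.15 and 0.13 for calcium-binding proteins, 0.09 and 0.03 for channels and -0.14 and -0.03 for interneurons. For other tissues they were 0.32 and 0.96 for choroid plexus, -0.14 and -0.36 for meninges, -0.15 and 0.17 for ependyma and -0.30 and -0.01 for red blood cells. The difference between genotypes was not tested for lists. In jj pups 0 genes passed without the Ttr-rich libraries, without untreated 4 or without treated 2, 3 or 5, 5 without treated 4, 16 without untreated 1, and 39 and 43 without untreated 3 and treated 1.

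**Figure D4:**
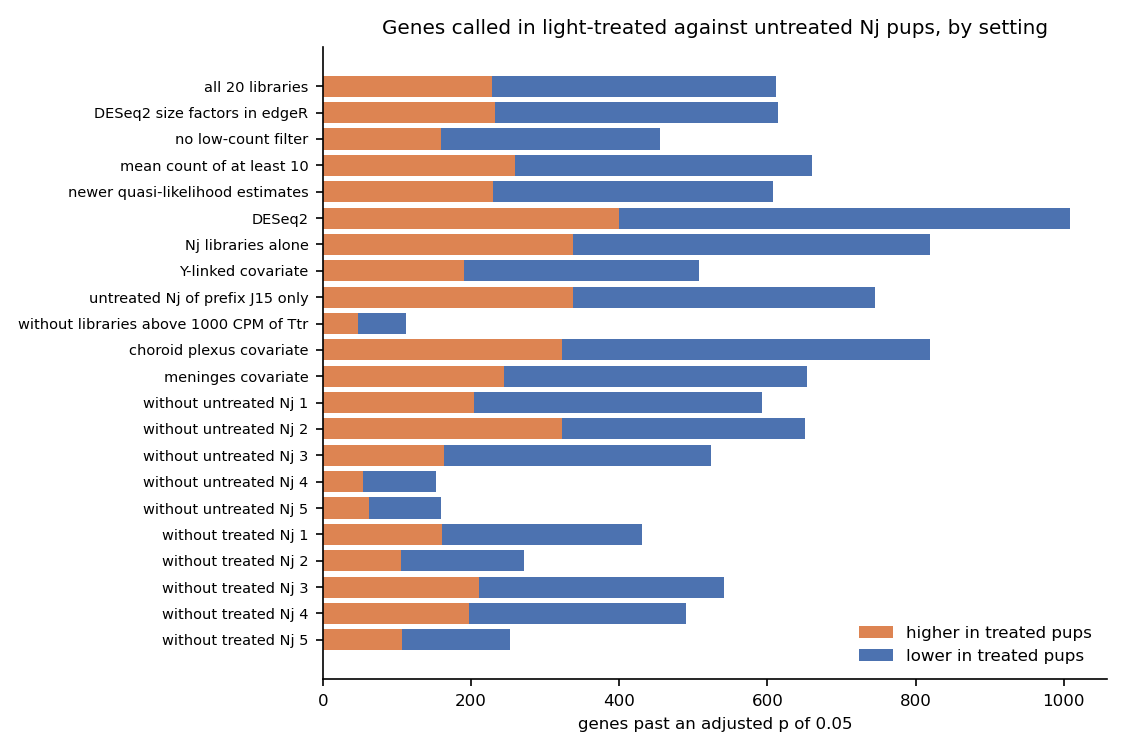
Number of genes past an adjusted p of 0.05 (horizontal axis) in treated against untreated Nj pups, higher (orange) and lower (blue), with all libraries, under 11 other settings and with each Nj library left out. The count is 611 with all libraries and lowest, at 112, when the 7 Ttr-rich libraries (3 Nj, 4 jj) are left out, while without untreated 4 it is 152.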

How the data were processed

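RNA of 20 hippocampi was sequenced as polyA libraries (Illumina TruSeq, per the labels' protocols). Reads were mapped with TopHat2 2.0.13 and counted with Subread, and FastQC and edgeR are also named, per the submitters' processing notes. Those notes name build mm10, whereas the gene identifiers are of the rat; the rat build used is not given in the sources used here. The authors deposited 1 table of raw read counts for 32883 genes, of which 10054 had 0 counts in every library. Strand use in counting is not given, so reads of overlapping genes may not be told apart.

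Libraries were grouped by their labels. Pups are separate animals, 5 per group. Genes were filtered by edgeR's filterByExpr (15272 kept), scaled by TMM and fitted in edgeR 4.0.16 (R 4.3.3) with 1 mean for each of 4 groups over all 20 libraries. Quasi-likelihood tests with robust dispersions were adjusted by Benjamini-Hochberg over all genes tested, with a threshold of 0.05. CPM are TMM-scaled; log2 changes are treated over untreated and their SE was derived from the F statistic. Levels of other tissues are means of log2(CPM + 1), tested by exact permutation of the 10 Nj libraries (smallest p 0.00794). The edgeR step was run on simulated counts drawn separately for each gene and library. Differences of prefix or tissue content shared by many genes were not part of them. DESeq2 1.42.0 was an alternative, beside other scalings, filters, covariates and libraries left out. Precision is set by the 5 pups a group.

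Gene lists and the comparison itself were chosen with earlier results of these data known. Genes were named by rule: past the threshold, at least 2 CPM and without overlap, the 15 largest rises and falls, the 10 lowest p and the 5 highest levels in each direction, and up to 4 members of each list in each direction by p, or the lowest-p member of a list without a call, with Ttr, Hmox1, Blvra, Bdnf, Per1, Mbp, Gfap, Calb1, Dcx and Mki67. Further list members past the threshold are given by their log2 change, and Mcm2, Sox11 and Crmp1 also by their values. Csf1r, Fkbp5, Fasn, Nalcn, Unc80, Tuba4a, Nup62, Atp6v1c1 and the families were chosen after their values were seen. Promoter sequences came from RefSeq (GRCr8). Genes were matched to it by gene identifier or else by symbol, for 87.1% of genes tested. A promoter sequence was at hand for 10858 of 15272 genes tested. Some genes that met the rule are not reported here.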

Additional observations from a re-analysis of the deposited data

Results flagged for a closer look

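Among the 157 genes named in the text, 17 had 1 Nj pup far from the other 4 of its group, by a gap above 0.71 of the group's range (Dixon's ratio). Chance alone flags about 1 in 20 groups, and each gene has 2 groups here, so 17 flags are near the rate of chance. In untreated pup 2 the highest values were those of Grin2c (19.9 CPM, beside 9.85 to 11.9 CPM in the other 4), Slc1a2 (125 CPM, beside 102 to 106 CPM), Kcnj9 (29.9 CPM, beside 24.5 to 25.4 CPM) and Csf1r (44.3 CPM, beside 40.7 to 41.6 CPM). In untreated pup 3 Pvalb was lowest (0.330 CPM, beside 0.627 to 0.735 CPM), and Psd3 (102.5 CPM, beside 95.3 to 96.9 CPM) and Ttr (4111 CPM, beside 3.57 to 762 CPM) were highest.

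In treated pup 4 the highest values were those of Kcnv1 (29.9 CPM, beside 20.5 to 22.2 CPM), Efnb1 (38.7 CPM, beside 28.0 to 30.5 CPM), Calb1 (97.9 CPM, beside 55.3 to 66.4 CPM), Unc80 (84.9 CPM, beside 74.7 to 76.8 CPM) and Kdm5d (37.8 CPM, beside 0 CPM). Neurod6 was lowest there (243 CPM, beside 328 to 362 CPM). Kdm5d is the Y chromosome gene named above, and treated pup 4 was the 1 treated Nj pup above 10 CPM of it. In treated pup 3 Aif1 was lowest (8.85 CPM, beside 11.9 to 12.1 CPM), and Cntn2 (144 CPM, beside 112 to 121 CPM) and Slc7a5 (173 CPM, beside 157 to 162 CPM) were highest. Sec24c was lowest in treated pup 5 (118.9 CPM, beside 126 to 127 CPM).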

How the results depend on the processing

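The count of 611 genes in Nj pups became 1008 with DESeq2 and 112 when the 7 libraries with over 1000 CPM of Ttr were left out, and ran from 152 to 651 when each Nj library was left out. It was 455 to 820 under the other 9 settings. Risers made up 37.3% of the calls, 45.2% with untreated pups of prefix J15 only and 49.5% without untreated 2. The 133 genes past the threshold that met the naming rule kept their sign in all 1461 values under other settings and 1330 with a library left out. They no longer passed in 172 of the former, 95 of them without the Ttr-rich libraries, and 418 of the latter. The genes were chosen by passing with all libraries, and these fits share most of them, so a change of sign was unlikely from the start. The 25 calls in jj pups became 283 with DESeq2, 13 with Y-linked transcripts as a covariate, 0 without the Ttr-rich libraries, 98 with the choroid plexus and 6 with the meninges level as a covariate, and 0 to 43 with a library left out. The difference between genotypes had 0 to 1 calls with a library left out, and 0 otherwise. The cause was not tested.

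Single values that had not passed changed sign. Per1 (0.0010 on the log2 scale) was -0.0026 without a filter, -0.0037 with Nj libraries alone, -0.0009 with the Y-linked covariate, -0.0307 with prefix J15 only, -0.0052 with the choroid plexus covariate and -0.0580 to 0.0613 with a library left out. Ttr (0.60) was -0.9952 without the Ttr-rich libraries, -0.12 with the choroid plexus covariate and -0.0445 to 2.40 with a library left out. Differences in tissue level ran from -0.2094 to 0.7089 for choroid plexus, -0.2301 to -0.0206 for meninges, -0.279 to -0.1247 for ependyma and -0.3211 to -0.2052 for red blood cells with a library left out. No paired analysis was possible because replicate numbers only name pups and pair none. In all settings every treated pup has the prefix J18 and no untreated pup has it.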

Other observations

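Further gene families were put together after their values were seen. Their calls in treated Nj pups stand beside 1.49% higher and 2.51% lower over all genes tested. Of 17 regulators of G protein signalling (Rgs) 4 rose and 0 fell, with a median of 0.15 on the log2 scale: Rgs5, Rgs6, Rgs10 and Rgs17. Of 280 zinc finger genes named Zfp, Znf or Zbtb 12 fell and 1 rose, Zfp365, with a median of -0.05. Of 9 subunits of the COPII coat, which buds vesicles from the endoplasmic reticulum, 3 fell and 0 rose: Sec31a, Sec24b and Sec24c. Of 16 clustered gamma-protocadherins, adhesion proteins that mark single neurons, 3 fell and 0 rose: Pcdhgc3, Pcdhgb6 and Pcdhgb7. Pcdhg genes share 3' exons, so how reads were split among them is uncertain.

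Genes that fell spanned a median of 35.83 kb in RefSeq (GRCr8), those that rose 27.69 kb and all genes tested 26.34 kb, over the 95.8%, 95.6% and 87.1% with a match. The share of G and C in the start-site window was 63.0%, 61.8% and 61.0% in the same order. The E-box letters CACGTG, which clock factors bind, were found in 9.2% of windows of genes that fell, 6.5% of those that rose and 9.1% of all. Of the clock outputs that rose, Tef holds them in its window, and Dbp and Nr1d2 have no such letters there.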
